A study of Homo sapiens with 8 samples.

Results

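The muscleblind-like proteins MBNL1, MBNL2 and MBNL3 and the protein RBFOX2 bind RNA and regulate alternative splicing. Their own transcripts were examined here in JSL1 cells, a monoclonal human T lymphocyte line derived from Jurkat. The members were all entries listed under these 4 gene symbols in the authors' deposited tables. Each entry is a local splicing variation (LSV): the junctions, and any retained intron, leaving 1 exon (a source LSV) or entering 1 exon (a target LSV). A junction's value is the authors' estimate of the percent of the LSV's splicing that it takes. The 4 genes held 38 of 95692 LSVs listed in either table. Of these 19 were in MBNL1, 10 in MBNL2, 9 in RBFOX2 and 0 in MBNL3, so that no splicing value of MBNL3 is given.

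The study compared 4 groups of 2 libraries of polyadenylated RNA. Unstimulated control cells and unstimulated CELF2-depleted cells formed 1 table. The other held control and CELF2-depleted cells after PMA (20 ng/mL, 48 hours), a phorbol ester and activator of protein kinase C. The depleted cells carried stably integrated, doxycycline-inducible hairpins (shCELF2) against CELF2, an RNA-binding protein that also regulates splicing. The labels do not say whether the control cells carried a hairpin or received doxycycline, nor whether the libraries of a group were separate cultures.

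MBNL proteins recognise RNA through pairs of zinc fingers and RBFOX proteins through an RNA recognition motif that prefers the letters UGCAUG. CELF and MBNL proteins act on many of the same exons, often in opposite directions, and both families are known from the developmental splicing of muscle and brain. MBNL1 and MBNL2 share a layout of alternative exons, among them an exon of 54 nucleotides (nt) that promotes nuclear localisation of MBNL1 and whose skipping MBNL1 itself is known to favour.

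The tables give 1 value per group with both libraries combined, so the spread between libraries and the read depth are unknown, and no SD, interval or test of its own accompanies a share. The authors' measure of error is the posterior probability that a junction's share differed by at least 20 percentage points between control and depleted cells, and an LSV was called where it reached 0.95 in any junction. Shares lie between 2.5% and 97.5%, the bounds of the authors' values, so a junction at 2.5% may be unused. In LSVs with several junctions at that bound the shares can add up to more than the whole. Inclusion of a cassette exon read from its source and its target LSV, which come from the same libraries, differed by up to 6.1 points at the 95th percentile of 14110 such pairs across all genes. That value holds no spread between libraries, so it does not measure the error of a difference between groups. The tables hold no RNA levels, so neither the depletion of CELF2 nor T cell markers nor the levels of the 4 genes were measured. Positions refer to hg19, per the submitters' processing notes.

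A set of 3 exons of MBNL1 on chromosome 3 have counterparts of equal length in MBNL2 on chromosome 13, and their sequences are shown because the results compare them. The 54-nt exons lie at positions 152164493 to 152164546 in MBNL1 and 98009050 to 98009103 in MBNL2, the 36-nt exons at 152173331 to 152173366 and 98017390 to 98017425, and the 95-nt exons at 152174056 to 152174150 and 98018713 to 98018807, all on the plus strand. Capitals mark the bases that differ between the genes. The sequences are those of GENCODE 29 exons with the same length and the same intron lengths on both sides.
MBNL1 54-nt exon: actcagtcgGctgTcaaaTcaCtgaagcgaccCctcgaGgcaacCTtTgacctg
MBNL2 54-nt exon: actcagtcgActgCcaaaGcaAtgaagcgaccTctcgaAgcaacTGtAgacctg
MBNL1 36-nt exon: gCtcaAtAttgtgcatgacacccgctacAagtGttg
MBNL2 36-nt exon: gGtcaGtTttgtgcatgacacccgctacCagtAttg
MBNL1 95-nt exon: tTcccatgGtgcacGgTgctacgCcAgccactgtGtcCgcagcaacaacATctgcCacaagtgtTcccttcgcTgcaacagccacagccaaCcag
MBNL2 95-nt exon: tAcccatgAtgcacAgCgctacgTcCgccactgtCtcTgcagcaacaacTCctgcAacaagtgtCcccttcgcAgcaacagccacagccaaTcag

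The 54-nt exons agreed at 45 bases (83.3%), the 36-nt exons at 31 (86.1%) and the 95-nt exons at 81 (85.3%). The lengths of 54 and 36 nt keep the reading frame, and 95 nt does not. Both 36-nt exons hold TGCATG, the DNA letters of the motif that RBFOX proteins prefer, from base 12. On the transcript strand 7 of 611 distinct 36-nt internal exons in GENCODE 29 hold it (1.15%), and its reverse complement CATGCA is in neither exon. A match describes these letters and is not evidence of binding.

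The first comparison asked which choices in these transcripts differed between control and CELF2-depleted cells. In unstimulated cells 1 of 36 LSVs of the 4 genes was called (2.78%), where 0.985% of all LSVs in that table were called. With PMA 1 of 38 was called (2.63%), where the share over all LSVs was 1.87%. Both called LSVs were in MBNL1 and they were different LSVs. By gene, 6.21% of all genes listed without PMA and 10.6% of those listed with PMA had a called LSV.

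**Figure D1:**
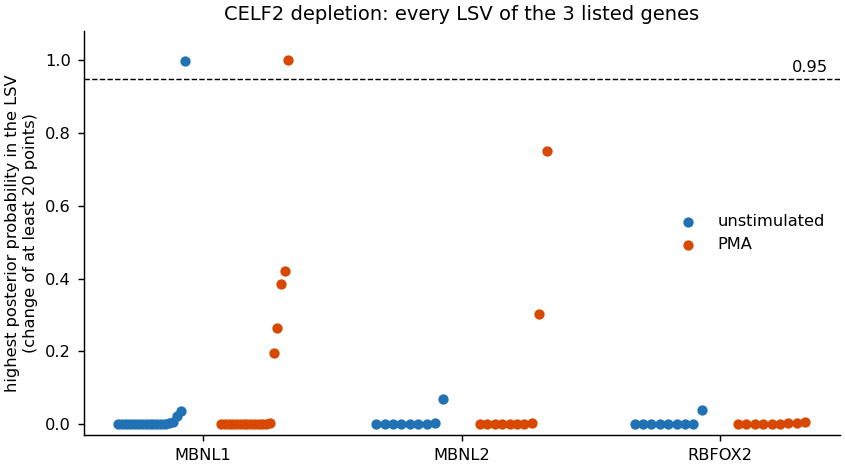
Each point is 1 LSV of MBNL1, MBNL2 or RBFOX2; the vertical axis is the highest posterior probability of any of its junctions in the authors' deposited tables, without PMA in blue and with PMA in orange, and the dashed line is the call threshold of 0.95. One MBNL1 LSV lies above the line in each state, the MBNL2 LSV nearest to it stands at 0.75 with PMA, and RBFOX2 reaches at most 0.0384.

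The LSV called without PMA was the entry into the first coding exon of MBNL1, whose acceptor is at position 152017194. The junction from a 273-nt exon at positions 152016771 to 152017043 had a share of 2.5% in control and 27.5% in depleted cells. Its expected change was 25.6 points and its posterior probability 0.998 in the authors' deposited table. With PMA the same junction stood at 2.5% and 9.0%, and was not called. The depleted cells thus had the higher share in both states, and both control values were at the lower bound.

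The counterpart of that rise was the junction from the 1053-nt first exon at positions 151985829 to 151986881. Without PMA it took 92.2% in control and 72.1% in depleted cells, with an expected change of -20.6 points and a posterior probability of 0.799, per the authors' deposited table. With PMA it was 97.5% and 90.2%. A junction from an exon far upstream, ending at position 151962229, took 7.8% in unstimulated control cells and 2.5% in the remaining groups. The 273-nt exon is the first exon of a noncoding transcript in GENCODE 29, matched by the 150-nt intron behind it, while the 1053-nt exon begins coding transcripts and is itself untranslated.

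The LSV called with PMA held the junctions leaving a 120-nt exon of MBNL1 at positions 152052900 to 152053019. The junction to a 556-nt exon at 152055907 to 152056462 fell with depletion from 92.6% to 44.6%, with an expected change of -49.3 points and a posterior probability that rounds to 1 in the authors' deposited table. The junction to the 171-nt second coding exon, at positions 152132730 to 152132900, rose from 7.0% to 54.7%. Measured at the entry into the 171-nt exon, where it is set against 6 other junctions, the same junction from the 120-nt exon took 2.5% in control and 3.0% in depleted cells with PMA, and 2.7% and 2.5% without. The remaining junction of the called LSV, to a 58-nt exon, was at 2.5% and 2.6%. The authors' table marks the LSV as holding a de novo junction. This LSV was not listed in the table of unstimulated cells, so its shares without PMA are unknown. No intron of MBNL1 in GENCODE 29, which is on another build, has the length of the junctions that join the 556-nt exon.

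Other LSVs also measured the same region. At the entry into the 171-nt exon, the junction from the 556-nt exon took 4.2% in control and 3.2% in depleted cells without PMA, and 16.1% and 2.5% with PMA. The control cells treated with PMA were thus the 1 group above 5%. The expected change with PMA was -14 points and its posterior probability 0.0223 in the authors' deposited table, under the threshold.

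Junctions leaving the 1053-nt first exon were ordered differently from one another. The junction to the 120-nt exon took 7.6% and 9.1% without PMA in control and depleted cells, and 14% and 6.3% with PMA, so that PMA-treated control cells were highest and PMA-treated depleted cells lowest. The junction that passes over the first coding exon and joins the 171-nt exon directly took 10.1% and 19.6% without PMA, and 12% and 29% with PMA. Its posterior probability with PMA was 0.422 in the authors' deposited table. Read from the 171-nt exon, the same junction took 7.5%, 12.6%, 8.6% and 23.5% in that order of groups. In both readings of this direct junction the depleted cells were higher in each state, and PMA-treated depleted cells were highest. The exit from the 1053-nt exon and the entry into the 171-nt exon share this direct junction. The entry also shares a junction with the LSV called with PMA, and the exit shares one with the LSV called without PMA. These readings are therefore not independent of each other or of the calls.

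**Figure D2:**
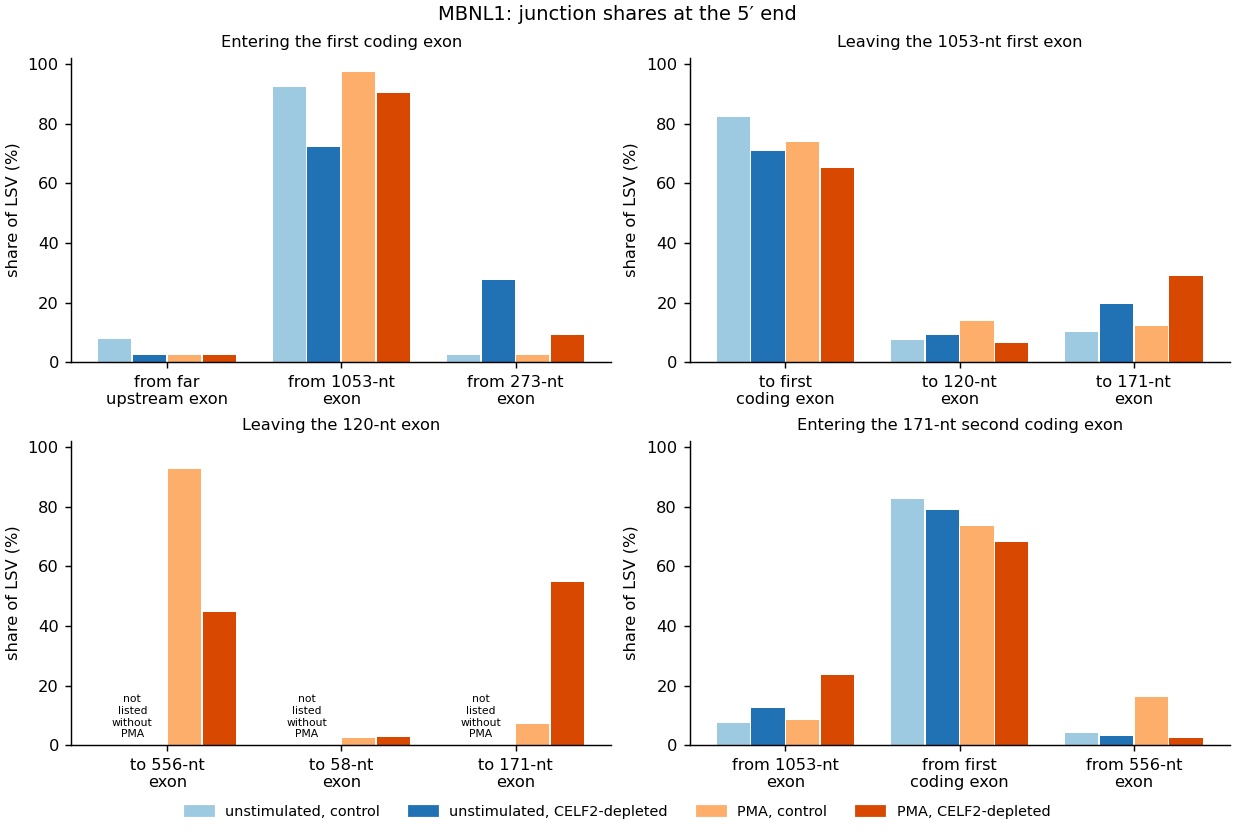
Bars give the share of the LSV in percent, as the authors' value for each group, for junctions entering the first coding exon of MBNL1, leaving its 1053-nt first exon, leaving the 120-nt exon and entering the 171-nt second coding exon. The junction from the 273-nt exon reaches 27.5% in unstimulated depleted cells, and the junction from the 120-nt to the 556-nt exon stands at 92.6% in PMA-treated control and 44.6% in PMA-treated depleted cells.

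The first coding exon of MBNL1, which holds the usual start codon, was also followed by 2 main choices. The junction to the 171-nt exon took 89.1% in control and 78.6% in depleted cells without PMA, and 84.3% and 76.6% with PMA. The junction to a 531-nt exon at position 152019708, an exon of a noncoding transcript in GENCODE 29, took 9.2% and 19.9% without PMA, and 13.4% and 21.2% with PMA. Depleted cells were higher at the 531-nt exon in both states. The expected changes were 10.3 and 4.0 points in the authors' deposited tables, and neither was called.

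The 54-nt exon of MBNL1 had the same highest and the same lowest group in both readings. From its source LSV the junction into the exon took 24.1% in control and 31.0% in depleted cells without PMA, and 16.1% and 22.6% with PMA. From its target LSV the junction out of the exon took 21.9%, 27.7%, 13.7% and 16.8%. Unstimulated depleted cells were highest and PMA-treated control cells lowest in both. The difference between depleted and control cells was 6.9 and 6.5 points by the source LSV and 5.8 and 3.1 points by the target LSV. The authors' expected changes were smaller, at 3.19 and 3.3 points by the source LSV and 2.4 and 0.395 points by the target LSV. The highest posterior probability in these LSVs was 0.00524 in the authors' deposited tables.

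The 54-nt exon of MBNL2 was used less. The junction into it took 3.8% and 7.3% without PMA and 2.5% and 2.8% with PMA, and the junction out of it 7.8%, 4.2%, 2.5% and 3.3%. The 2 readings put control and depleted cells in opposite order without PMA, so no direction can be read. In each group the MBNL1 exon was above the MBNL2 exon, by at least 13.6 points in the source LSVs and 11.2 points in the target LSVs.

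The 36-nt exon followed a different pattern from the 54-nt exon. In MBNL1 the junction into it from the 154-nt exon took 97.5% in control and 95.7% in depleted cells without PMA, and 92.3% and 75.6% with PMA. Read at the next exon, the junction from it took 97.5%, 95.5%, 92.9% and 77.0%. PMA-treated depleted cells were lowest in both readings, and the expected changes with PMA were -17.1 and -16.3 points with posterior probabilities of 0.385 and 0.265 in the authors' deposited table. The junction that skips the exon and joins the 95-nt exon took 2.5%, 3.8%, 7.0% and 22.7% in the source LSV. The LSV read at the next exon holds the same skipping junction, so the readings are not independent. Neither LSV was called.

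In MBNL2 the 36-nt exon was the minor form. The junction into it took 9.7% in control and 4.7% in depleted cells without PMA, and 17.5% and 2.5% with PMA. At the 95-nt exon, listed with PMA alone, the junction from it took 26.7% in control and 5.3% in depleted cells, with a posterior probability of 0.302, per the authors' deposited table. At the last exon, however, the junction from it took 4.3% and 9.2% without PMA, and 4.0% and 2.5% with PMA. Depleted cells were lower with PMA in all 3 readings, and without PMA the readings differed in order.

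The 95-nt exon was near its upper bound in MBNL1 and intermediate in MBNL2. In MBNL1 the junction from the 36-nt to the 95-nt exon took 97.5% and 94.2% without PMA, and 97.5% and 88.1% with PMA, and the junction out of it 97.5%, 93.1%, 97.5% and 88.7%. In MBNL2 the junction from the 154-nt to the 95-nt exon took 35.0% and 25.9% without PMA, and 19.5% and 44.3% with PMA. That last difference had an expected change of 22.9 points and a posterior probability of 0.75, per the authors' deposited table, the highest among MBNL2 junctions and under the threshold. The junction from the 95-nt exon to the last exon took 38.6%, 34.5%, 40.8% and 44.5%, a narrower range.

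The junction that joins the 154-nt exon of MBNL2 directly to the last exon was measured from both ends. Its source LSV gave 55.3%, 69.3%, 63.0% and 55.3%, and its target LSV 57.1%, 56.3%, 55% and 55.1%. The value of 69.3% in unstimulated depleted cells therefore had no counterpart in the target LSV.

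**Figure D3:**
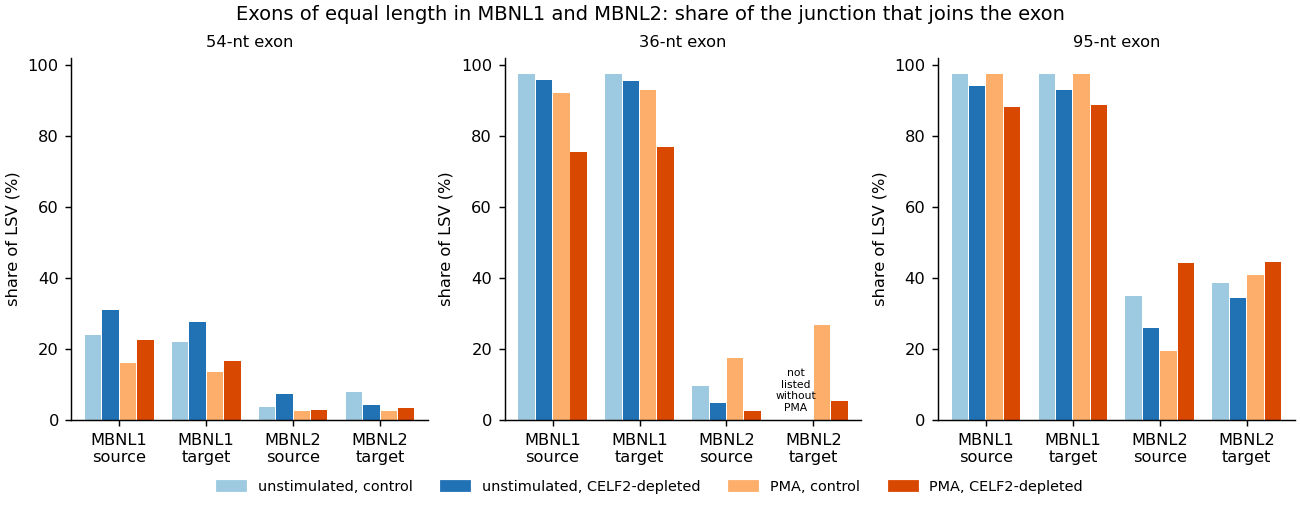
Bars give the share in percent of the junction that joins the 54-nt, 36-nt or 95-nt exon, in MBNL1 and MBNL2, read from the LSV of the exon before (source) or after (target), in the 4 groups. As plotted, MBNL1 bars exceed MBNL2 bars for each exon, and the MBNL1 36-nt exon is lowest, at 75.6% and 77.0%, in PMA-treated depleted cells. The 95-nt source bars show unlike junctions, from the 36-nt exon in MBNL1 and from the 154-nt exon in MBNL2. The MBNL1 junction from the 154-nt to the 95-nt exon, not plotted, took 2.5%, 3.8%, 7.0% and 22.7%, below the MBNL2 bar in each group.

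RBFOX2, on the minus strand of chromosome 22, had 0 of 9 LSVs called in either state. Over all LSVs the share called was 0.985% without PMA and 1.87% with PMA, so a count of 0 among 9 is not particular to RBFOX2. Its 40-nt exon and its 43-nt exon follow the same exon, and the sequences of both are shown because the cells used 1 of them almost alone. The 40-nt exon lies at positions 36152152 to 36152191 and the 43-nt exon at 36148660 to 36148702.
RBFOX2 40-nt exon: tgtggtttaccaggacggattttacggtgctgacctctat
RBFOX2 43-nt exon: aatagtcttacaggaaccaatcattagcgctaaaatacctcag

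The junction into the 40-nt exon took 97.5% in both kinds of unstimulated cells, and 97.5% in control and 87.7% in depleted cells with PMA. The junction into the 43-nt exon was at the lower bound of 2.5% in all 4 groups. The junction that skips both exons took 2.5% in 3 groups and 12.2% in PMA-treated depleted cells. Read from the exon after them, the skipping junction took 12.9% in that group, with an expected change of 10.3 points and a posterior probability of 0.00217, per the authors' deposited table. PMA-treated depleted cells had the highest share in both readings, which rest on the same junction, and the difference was below the 20 points of the call. A 32-nt exon between the 40-nt exon and the next was at 2.5% in every group.

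A further 2 pairs of acceptors in RBFOX2 gave the other intermediate shares. The first bases of the longer forms are shown, with capitals for those that the shorter form lacks.
RBFOX2 147-nt exon: CAGacagaaggtggagcacagacagacggc
RBFOX2 145-nt exon: GTCTCCCTTTAGttcctggcttcccttacc

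The 147-nt exon at positions 36177647 to 36177793 and its 144-nt form have acceptors 3 nt apart. The 147-nt form took 36.4% in control and 37.8% in depleted cells without PMA, and 48.7% and 42.9% with PMA. PMA-treated cells were higher in both kinds of cells, by 12.3 and 5.1 points. The effect of depletion had a posterior probability of at most 0.00321 in the authors' deposited tables.

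The 145-nt exon at positions 36155935 to 36156079 and its 133-nt form have acceptors 12 nt apart. The 133-nt form took 75.4% in control and 65.4% in depleted cells without PMA, and 77.7% and 71.2% with PMA, so that depleted cells were lower in both states. The authors' expected changes for this form were smaller than these differences, at -2.82 points without PMA and -0.657 points with PMA. The annotated junction of the 145-nt form was at the lower bound in all groups, and a junction of the same intron length, shifted by 2 nt at both ends, took 24.3%, 34.5%, 22% and 28.7%. The 145-nt exon begins with gt. If its intron also begins with gt, as most introns do, both junctions give the same spliced sequence; the intron sequence was not used here. The highest posterior probability in this LSV was 0.0384 in the authors' deposited tables.

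**Figure D4:**
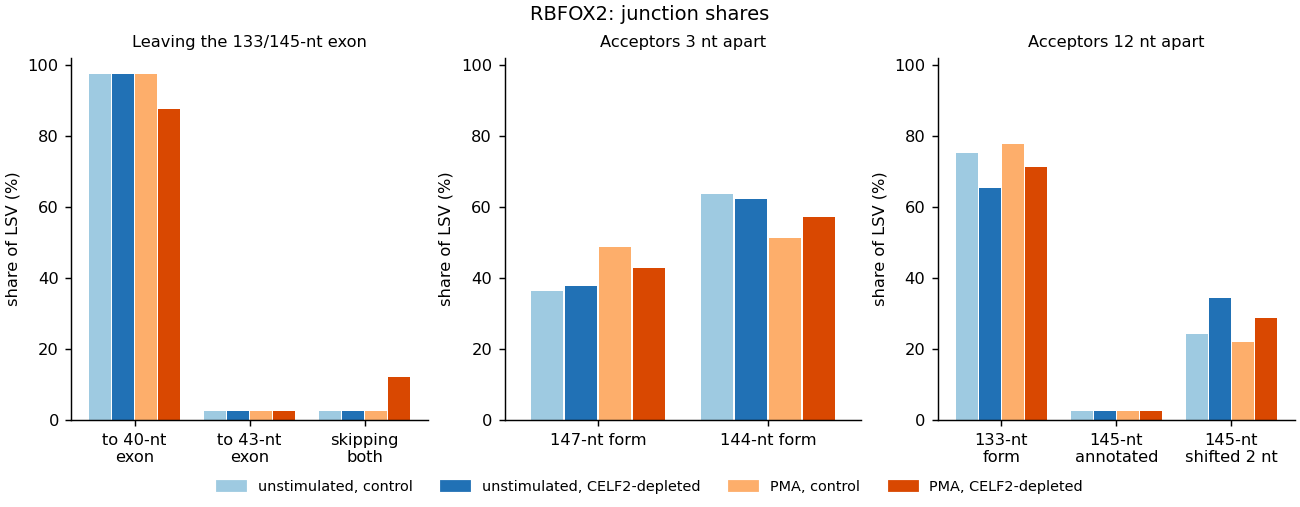
Bars give the share of the LSV in percent in the 4 groups for RBFOX2, for the choice after the 133/145-nt exon, the acceptors 3 nt apart and the acceptors 12 nt apart. Skipping of both the 40-nt and 43-nt exons stands at 12.2% in PMA-treated depleted cells against 2.5% in the other groups.

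The second comparison set PMA-treated against unstimulated cells of the same kind. It is a difference of the authors' values from separately quantified tables, with no test. In control cells 0 of the 36 LSVs in both tables had a junction that differed by at least 20 points, against 2.59% of all 87517 LSVs in both tables. In depleted cells 1 of 36 did (2.78%), against 1.87% of all. That LSV was the exit from the 154-nt exon of MBNL1, where the junction into the 36-nt exon took 95.7% without and 75.6% with PMA. Both counts are near the share over all LSVs.

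The largest differences between states in control cells were modest. In MBNL2 the junction from the 154-nt to the 95-nt exon was 15.5 points lower with PMA, and in depleted cells it was 18.4 points higher. In RBFOX2 the 147-nt form was 12.3 points higher, and in MBNL1 the junction from the 556-nt to the 171-nt exon was 11.9 points higher in control cells. In the MBNL1 54-nt exon the share was lower with PMA in both kinds of cells. In control and depleted cells it was 8.0 and 8.4 points lower by the source LSV, and 8.2 and 10.9 by the target LSV. The source and target readings come from the same libraries.

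**Figure D5:**
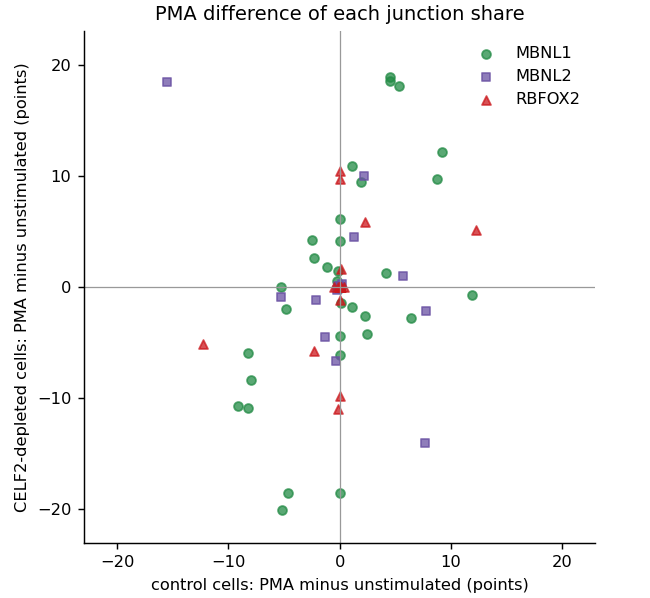
Each point is 1 junction share of MBNL1, MBNL2 or RBFOX2 listed in both tables; the axes give its difference between PMA-treated and unstimulated cells, in percentage points, in control cells (horizontal) and in CELF2-depleted cells (vertical). Most points lie near 0 on both axes, and the MBNL2 point at -15.5 and 18.4 lies in opposite directions on them. That point was read from 1 LSV, the exit from the 154-nt exon.

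The 2 comparisons of states share no library, nor do the 2 of depletion. Among 100 junctions or retained introns in both tables, 12 in 8 LSVs differed by at least 5 points between states in both kinds of cells, and 10 of them in the same direction. For depletion, 14 in 7 LSVs differed by at least 5 points in both states, 12 of them in the same direction. At a limit of 2 points the same direction held for 17 of 25 between states and for 19 of 24 for depletion. At 10 points 1 junction passed between states, in opposite directions, and 0 for depletion. At 5 points the 2 exceptions in both counts were junctions leaving the 154-nt exon of MBNL2. Shares within 1 LSV depend on each other, and some junctions were counted from both their source and their target LSV. All these counts use differences of the shares. For depletion the authors' expected changes were smaller for many of the junctions, and the counts were not made with them. No such counts over all genes were made to set beside these, so they are descriptions.

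By the rule for cassette exons (an LSV of 2 junctions without other splice sites), the 4 genes had 13 exons, 12 of them measured in all 4 groups. None of these 12 spanned 20 points over the groups, and the largest span was 9.4 points, in the 95-nt exon of MBNL1. The rule leaves out exons in LSVs of more junctions. One is the 36-nt exon of MBNL1, where the junction into it spanned 21.9 points and the junction out of it to the 95-nt exon 20.5 points. Exons near full inclusion were the 204-nt exon of MBNL1, between 92.8% and 97.5%, its 154-nt exon, the 201-nt exon of MBNL2 and a 54-nt exon of RBFOX2, the last 3 at 97.5% in every group. A 58-nt exon of MBNL2 stood between 2.6% and 2.8%, and a 64-nt exon of MBNL1 and the 32-nt exon of RBFOX2 at 2.5%. A 93-nt exon of MBNL1 ran from 2.5% to 4.9%. By the same rule the 305-nt exon of MBNL1, from 2.5% to 5.4%, and the 104-nt exon of RBFOX2, from 2.5% to 2.7%, were counted, although both are first exons in GENCODE 29. Over all 36 LSVs in both tables the largest span of any junction over the 4 groups had a median of 4.8 points, and 2.4 points over all LSVs in both tables.

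Related genes were counted from 3 lists chosen with earlier results of these data known, so the counts are a description; some genes, such as PTBP2 and NUMA1, are in more than 1 list. Of other tissue-regulated splicing factors 1 of 16 listed genes without PMA and 6 of 17 with PMA had a called LSV, against 6.21% and 10.6% of all genes. With PMA they included CELF1, the nearest relative of CELF2, where a junction fell from 80.4% to 40.9%, and PTBP2, a repressor related to PTB, where one rose from 2.6% to 35.7%, and CELF2 itself. Of genes with exons known to be regulated by MBNL proteins 2 of 16 were called without and 5 of 16 with PMA, among them FOXP1, a transcription factor, of which 1 junction rose from 7.0% to 62.4%. Of genes with exons known to be regulated by RBFOX proteins 5 of 16 and 10 of 16 were called, among them FMNL3, a formin, of which 1 junction rose from 42.7% to 97.2%, and PICALM, an endocytic adaptor, of which 1 fell from 97.5% to 65.5%. By LSV, 6.21%, 3.29% and 6.04% of the 3 lists were called with PMA, against 1.87% of all LSVs, and 0.654%, 1.92% and 3.03% without, against 0.985% of all. Whether these calls lie in exons bound by MBNL or RBFOX proteins was not tested.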

How the data were processed

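Stranded TruSeq libraries of polyadenylated RNA were made, per the labels' protocols. STAR 2.5.1b and hg19 appear in the submitters' processing notes, which give no role for either. The authors deposited 2 tables with VOILA column names (MAJIQ's output); the sources used here give no version, annotation or filter for them. Per the file headers, each line is 1 LSV and holds, per junction, the control and depleted shares, the authors' expected change and the posterior probability that the change reached 20 points. That probability is not a p-value. Each share covers a group's 2 libraries together, and 0 columns of per-sample values were left unused.

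All LSVs of the 4 genes were taken by symbol with Python 3.11.15 and pandas 2.3.3, and the parser was tested on simulated data. Source and target were taken from the LSV type, because on the minus strand the word in the LSV identifier was the opposite in 89843 of 89843 entries. Exon sequences and annotation came from GENCODE 29 by matching lengths of exons and introns within a gene, without converting positions between builds. Described one by one were LSVs with a posterior probability of at least 0.5, or a junction share spanning 20 points over the groups, and all cassette exons; the RBFOX2 choices and the 54-nt, 531-nt and other MBNL1 choices below these limits were named after their values were seen. The rule for the exons most like a member's applied to cassette exons measured in all 4 groups and spanning 20 points, and found 0; the MBNL2 36-nt exon, which spanned 21.4 points, was listed as a cassette exon with PMA alone. The members, lists and rules were chosen with earlier results of these data known. Reads shared between the paralogs could not be resolved.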

Additional observations from a re-analysis of the deposited data

How the results depend on the processing

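No paired analysis was possible because the tables hold 1 value per group, with both libraries combined; for the same reason no library could be left out. The calls depend on the kind of LSV. Percentages in parentheses are the shares of all LSVs. Without PMA the count of 1 was 1 at a posterior probability of 0.9 (1.32%) or 0.5 (3.15%), 2 of 36 by an expected change of 10 points (6.29%), and 0 with 2-junction LSVs or source LSVs alone. With PMA the count of 1 became 2 of 38 at a posterior probability of 0.5 (4.98%) or by an expected change of 20 points (3.84%), 8 by one of 10 points (9.33%), and 0 without LSVs holding a de novo junction, with 2-junction LSVs, with LSVs listed in both tables or with target LSVs alone. Between states, 3 LSVs in control and 8 in depleted cells passed 10 points (10.3% and 9.38%). In depleted cells the count of 1 was 0 at 30 points, with 2-junction LSVs or with target LSVs alone. The called LSVs and the one past 20 points had 3 junctions each, and each was of 1 kind, source or target, so the zeros by kind of LSV follow from the LSVs left out.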

Other observations

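Of the 105 junctions and retained introns of MBNL1, MBNL2 and RBFOX2, 50 stood within 0.5 points of 2.5% or of 97.5% in every group listed. Among them were the entries of 2 retained introns, which stood at 97.4% or 97.5% in all 4 groups. The 37-nt intron of MBNL2 at positions 97999258 to 97999294 lies between listed exons of 200 and 27 nt, which with it make up the annotated 264-nt coding exon. The 83-nt intron of MBNL1 lies inside the annotated 963-nt first coding exon in the same way. It is listed from both of its ends, and there the other junction removes 573 nt, more than the 83-nt intron. The entries of both genes therefore give the unbroken exon the retained share.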
